A study of Mus musculus with 221 samples.

Results

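The genes described here are 43 genes of mitochondrial fatty acid oxidation, lipid droplets, lipid synthesis and their regulators, out of 55291 genes in the count table. They were taken from a fixed list by symbol, and all 43 were found. Each RNA library came from 1 early 2-cell embryo after in vitro fertilization. The sires of 99 embryos had been fed a low-fat diet (LFD), and those of all other embryos a high-fat diet (HFD), namely 110 embryos and a further 12 whose macrophage marker RNA lay above that of every LFD embryo. All embryos shared a C57BL/6N nuclear genome and the Staudach (ST) mitochondrial genome of the oocyte donors (C57BL/6N-mtST), and the donors had not been exposed to the diets. The labels give no ages. Per the study's methods, frozen and thawed sperm of several males per diet was used, with different males on each fertilization date. Sire and date are not in the labels, so embryos of 1 sire were counted as independent and diet cannot be told apart from sire. The comparison asks whether the diet of the sire before conception is followed by a difference in the transcripts of the embryo.

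Long-chain fatty acids are activated to acyl-CoA by synthetases, carried into mitochondria by the carnitine shuttle and shortened by the enzymes of the beta-oxidation spiral. The acyl-CoA dehydrogenases of the spiral pass their electrons to the electron transfer flavoprotein. Fatty acids that are not burned are stored as triglyceride in lipid droplets, which perilipins coat and lipases open again. Mouse oocytes hold such droplets, and beta-oxidation is known to matter for oocyte maturation and early development. At the early 2-cell stage most transcripts are still maternal, while the embryonic genome is being switched on.

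Libraries held 2296020 to 13155271 counts (HFD) and 1937251 to 17246791 counts (LFD). Embryos had a count in 11364 to 21638 genes, and 4 HFD and 4 LFD embryos had few genes for the series (over 3 scaled median absolute deviations below the median). All 20 of the 2-cell transcripts and all 29 of the maternal transcripts found in the table had a median above 0 over the embryos. The summed level of 16 macrophage markers, as log2(summed CPM + 0.5), where CPM are counts scaled to 1000000 counts of the library, lay between 3.83 and 12.6 among HFD embryos and between 5.47 and 7.29 among LFD embryos. In 12 HFD embryos it lay above every LFD embryo. Of these, 9 lay at 10.1 or higher, and the other 3 lay between 7.32 and 7.73, close to the highest LFD embryo. Of the 16 markers, 8 had a median of 0, among them Adgre1, Ptprc and Itgam. The summed level of 18 cumulus and granulosa cell markers lay between 4.75 and 8.20 among HFD and between 5.37 and 7.43 among LFD embryos. In 15 HFD embryos it lay above every LFD embryo, and 6 of the 18 markers had a median above 0. The summed level of 7 Y-linked genes, on the same scale, had a median of 5.435 in HFD and 3.568 in LFD embryos. Embryos were not split by sex.

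Levels are given in CPM, and levels compared between genes are CPM per kilobase of exon. The best-covered genes belonged to several steps of the pathway. Etfa, the alpha subunit of the electron transfer flavoprotein (chromosome 9, 55454508 to 55512243, GRCm38), had the highest level per length, with 24.1 ± 10.7 (SD over all HFD embryos) CPM per kilobase in HFD and 24.4 ± 13.03 (SD, n = 99) in LFD embryos. Acsl3, an acyl-CoA synthetase of the endoplasmic reticulum and lipid droplets (chromosome 1, 78657825 to 78707743), had 23.4 ± 7.95 and 24.6 ± 6.86 CPM per kilobase. Acadm, the medium-chain acyl-CoA dehydrogenase (chromosome 3, 153922357 to 153944632), had 22.4 ± 4.83 and 23.5 ± 5.15. These 3 neighbours in the order differed by less than the spread between embryos.

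The isomerase Eci1, which handles unsaturated fatty acids, followed with 12.5 ± 7.63 CPM per kilobase in HFD and 12.4 ± 6.61 in LFD embryos. The enoyl-CoA hydratase Echs1 had 9.38 ± 2.69 and 8.96 ± 2.43. The desaturase Scd1 had 7.78 ± 5.28 and 8.03 ± 5.28, the droplet coat protein Plin2 8.23 ± 8.29 and 5.76 ± 2.94, and the synthetase Acsl1 6.41 ± 1.98 and 6.78 ± 2.00. From Eci1 down, the spreads of neighbouring genes overlapped.

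At the low end, 7 genes did not pass the filter on low counts and were tested only in an alternative with no filter. There 0 of the 7 were called by edgeR, beside 7030 of about 45510 genes, so 0 of so few genes says little. Cpt1b, the muscle form of carnitine palmitoyltransferase, had a count in 2 HFD embryos and in no LFD embryo. Ppargc1a, a coactivator of mitochondrial genes, had a count in 28 HFD and 25 LFD embryos, with a mean of 0.0475 CPM per kilobase. Mgll, the monoacylglycerol lipase, was found in 40 and 39 embryos, and Acsl5, another synthetase, in 58 and 44. In the 12 HFD embryos above every LFD embryo in macrophage markers, Acsl5 had a mean of 4.90 ± 7.33 CPM (SD). It had 0.61 ± 1.01 in the other 110 HFD and 0.70 ± 1.21 in the LFD embryos. Mgll had 4.20 ± 8.07 CPM in the 12, with a median of 0, beside 0.71 ± 1.58 and 0.70 ± 1.18. Decr1, a reductase for unsaturated fatty acids, was found in 59 and 50 embryos, Etfb, the beta subunit of the flavoprotein, in 99 and 77, and Acaa2, a thiolase, in 70 and 59.

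Counting limits some of these levels. Exons of Gm44502 on the same strand covered 81.4% of the Cpt1b exons, and exons of Etfbl covered 53.01% of those of Etfb, and reads that fall in more than 1 gene were left out by the counting program's defaults. Exons of another gene on the opposite strand overlapped 13 of the 43 genes, most of all Acadvl, the very-long-chain dehydrogenase, where exons of Dvl2 covered 42.9%. Smart-seq2 does not mark strand, so reads of such neighbours cannot be told apart in the overlap.

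**Figure D1:**
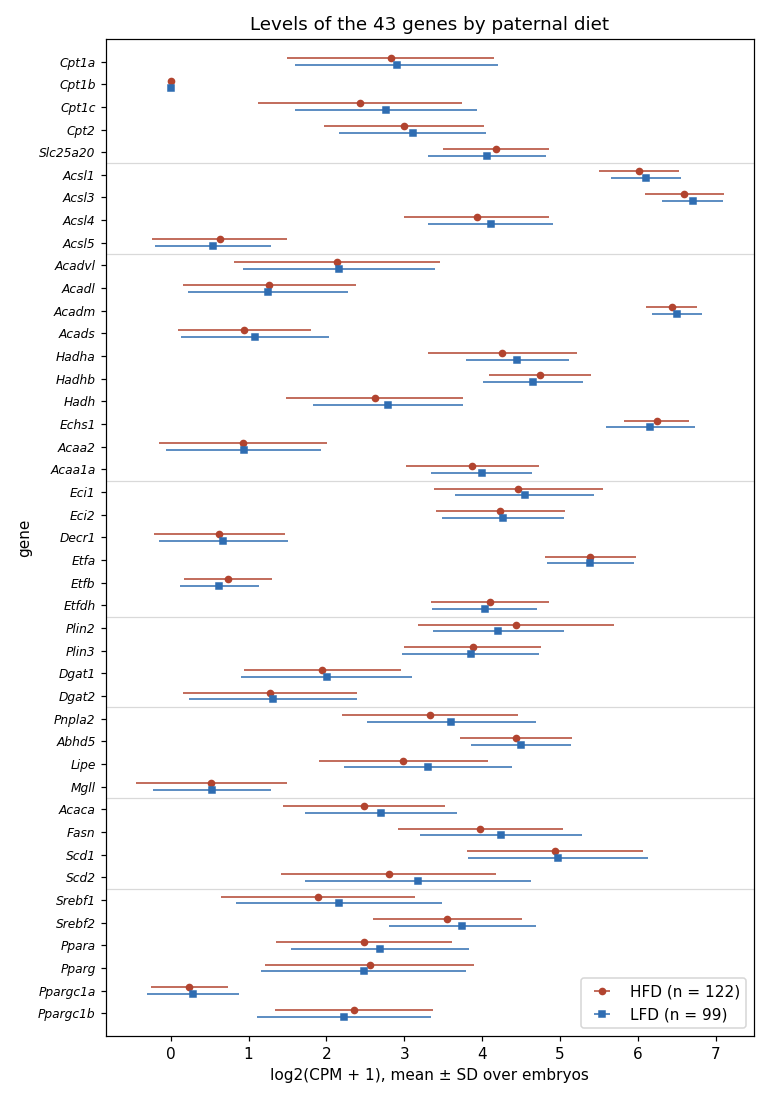
Mean level of each of the 43 genes as log2(CPM + 1), with bars of 1 SD over embryos, for HFD (red circles) and 99 LFD (blue squares) embryos. Grey lines separate the classes of genes. The bars of both diets overlap for every gene, and the genes span the range from Cpt1b near 0 to Acsl3 at the top.

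Between the diets, 1 of the 36 genes tested was called, Plin2, which rose in HFD embryos, and none fell (edgeR quasi-likelihood test, FDR under 0.05 over 14820 genes). Of all genes tested, 2.12% were called, 1.07% higher and 1.05% lower in HFD embryos, so 1 of 36 is near the background. The median log2 fold change of the 36 genes was -0.04, beside 0.004 for all genes tested. The estimate was positive for 14 and negative for 22 of them. The summed level of all 43 genes was 794.1 ± 91.6 CPM (SD) in HFD and 813.7 ± 80.6 CPM (SD, n = 99) in LFD embryos.

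The standard error of the log2 fold change had a median of 0.14 over the 36 genes, and the 95% interval lay within 0.5 log2 units of no change for 22 of them. The genes whose intervals reached past that bound were Cpt1c, Acadvl, Acadl, Acads, Plin2, Dgat1, Dgat2, Pnpla2, Lipe, Fasn, Scd2, Srebf1, Ppara and Pparg. All of these intervals rest on the spread between embryos, and variation from sire to sire was not modelled. The intervals can therefore be too narrow for an effect of diet, and they set no limit on its size.

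**Figure D2:**
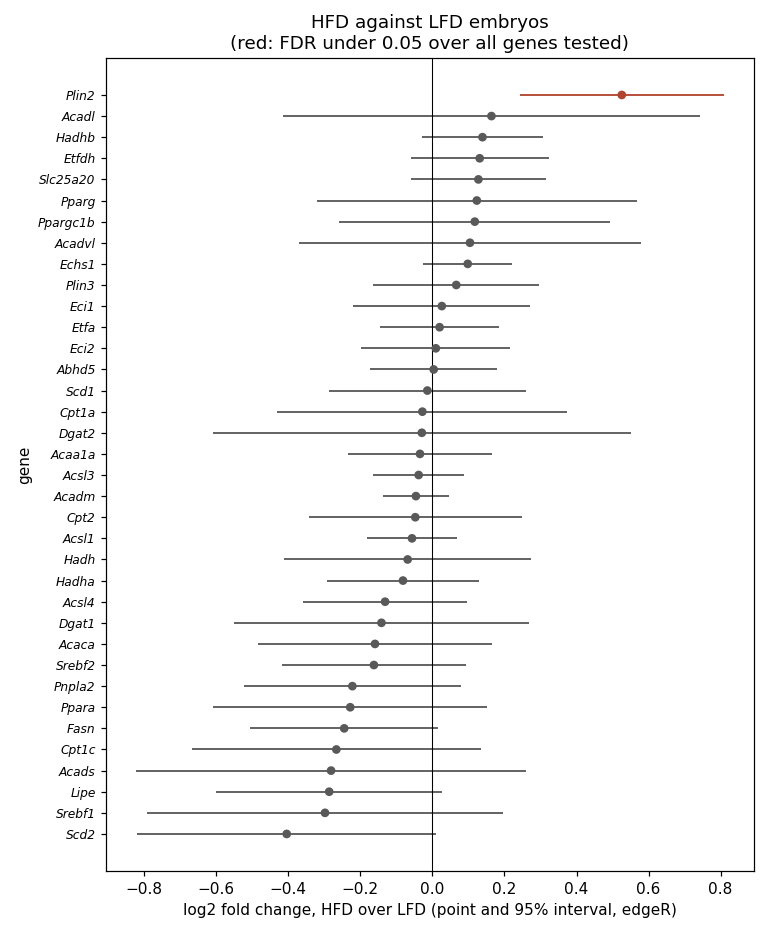
Log2 fold change of HFD over LFD embryos for the 36 tested genes, sorted, with 95% intervals from edgeR over all embryos. Plin2, in red, is the 1 gene called, at 0.53, and Scd2 has the lowest estimate, at -0.40.

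Plin2 coats lipid droplets and is held stable by the lipid in them. The gene lies on chromosome 4 from 86648386 to 86670060 on the minus strand. Its promoter is shown because it is the 1 gene called between the diets (RefSeq, GRCm38.p6, chr4:86670010-86670309, minus strand, 5′ to 3′), with capitals marking a CCAAT box (CCAAT), an E-box (CACGTG) and a GC box (GGGCGG), searched on both strands.
Plin2: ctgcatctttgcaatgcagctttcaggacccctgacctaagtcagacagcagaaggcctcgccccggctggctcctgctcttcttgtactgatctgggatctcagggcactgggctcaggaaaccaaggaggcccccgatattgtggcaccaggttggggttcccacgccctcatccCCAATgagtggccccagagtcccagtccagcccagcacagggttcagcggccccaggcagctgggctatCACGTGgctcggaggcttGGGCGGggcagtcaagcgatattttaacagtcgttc
An E-box was found in 7.24% of 27025 promoter windows of this length, a GC box in 35.9% and a CCAAT box in 37.9%. Of the 35 genes described here that matched the promoter table, 3 held an E-box (Plin2, Mgll and Lipe), 27 a GC box and 15 a CCAAT box. Some windows lie inside the counted gene, away from its first base, among them those of Acaca, Eci2, Lipe, Plin3, Acaa1a and Acsl5. The DR1 element bound by PPAR factors (AGGTCANAGGTCA) was found in 0 of the 35 and in 0.0444% of all windows, and a sterol response element (TCACNCCAC) in 0 and in 1.22%.

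In HFD embryos the level of Plin2 ran from 0 to 207.4 CPM with a median of 21.8, and in LFD embryos from 0 to 52.8 CPM with a median of 17.1. The groups overlapped through most of their range, with 12 HFD embryos above the highest LFD embryo and 63.1% of HFD embryos above the LFD median. The log2 fold change was 0.53 ± 0.14 (SE), a 1.44-fold higher level (95% interval of the log2 value 0.24 to 0.81, FDR = 0.0253 in the edgeR quasi-likelihood test).

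The highest values of Plin2 came with macrophage marker RNA. In the 12 HFD embryos whose macrophage marker level lay above every LFD embryo, Plin2 had a mean of 87.1 ± 58.1 CPM (SD), with values from 24.4 to 207.4 and a median of 75.9. In the other 110 HFD embryos it had 22.6 ± 13.7 CPM with a median of 19.4, beside 20.2 ± 10.3 CPM in the 99 LFD embryos. The 3 of the 12 with marker levels close to the highest LFD embryo had 28.5, 33.3 and 79.6 CPM of Plin2. Of the 12 HFD embryos above the highest LFD embryo in Plin2, 8 were among those with high macrophage markers and 4 were not.

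Without those 12 embryos, a choice made after the data were seen, the log2 fold change of Plin2 was 0.18 (FDR = 0.676, edgeR), and with the macrophage level as a covariate it was 0.20 (FDR = 0.593, edgeR). The call was also lost with limma-voom (0.25, FDR = 0.557), with ranges of embryo numbers as a random effect in limma-voom (0.25, FDR = 0.780), with the cumulus marker level as a covariate (0.41, FDR = 0.0810, edgeR) and with the Y-linked level as a covariate (0.46, FDR = 0.0661, edgeR). Pearson's r between Plin2, as log2(CPM + 1), and the macrophage level was 0.46 over all embryos, which share the library protocol and differ in depth. It was 0.01 among the LFD embryos and 0.37 among the 110 HFD embryos, which include a few with both levels low. Between Plin2 and the cumulus and granulosa marker level, r was 0.39 over all embryos. These values are a description of these libraries.

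**Figure D3:**
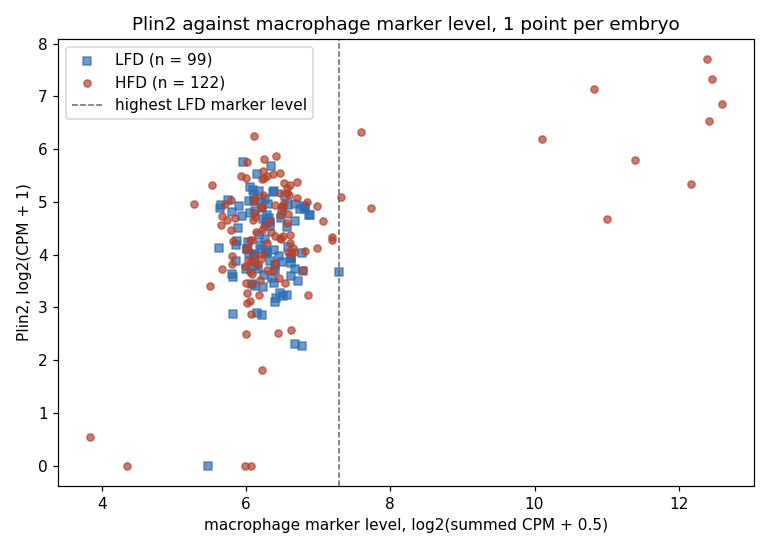
Plin2 as log2(CPM + 1) against the macrophage marker level, log2(summed CPM + 0.5), with 1 point per embryo (HFD red circles, LFD blue squares). The dashed line marks the highest LFD marker level, and the 12 HFD embryos to its right have a median Plin2 of 75.9 CPM.

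The genes whose level was most like that of Plin2 within the diets, by Pearson's r of log2(CPM + 1) over all embryos, were Ctsz (0.57), Psap (0.54) and Upp1 (0.52). Ctsz and Psap encode the lysosomal proteins cathepsin Z and prosaposin. Without the 12 embryos, the 3 most alike were Cavin1 (0.58), Gm13068 (0.57) and E130309D02Rik (0.56) over 209 embryos. The diet means taken off there were those of all embryos, the 12 included, so a difference between the diets can enter these 3 values.

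The other genes of droplet coat and triglyceride synthesis were not called. Plin3, a second coat protein, had a log2 fold change of 0.07 ± 0.12 (SE), and the acyltransferases Dgat1 and Dgat2, which make triglyceride, had -0.14 ± 0.21 and -0.03 ± 0.30. In lipolysis, 0 of 3 tested genes were called. Pnpla2, the first lipase of triglyceride breakdown (chromosome 7, 141455198 to 141460743), had a lowest, median and highest level of 0, 11.1 and 32.8 CPM in HFD and of 0, 13.1 and 44.9 CPM in LFD embryos. Its log2 fold change was -0.22 ± 0.15 (FDR = 0.587, edgeR). Lipe, the hormone-sensitive lipase (chromosome 7, 25379527 to 25398710), had a lowest, median and highest level of 0, 8.17 and 23.7 CPM in HFD and of 0, 9.84 and 29.2 CPM in LFD embryos. The log2 fold change of Lipe was -0.29 ± 0.16 (FDR = 0.457, edgeR), and exons of an opposite-strand gene covered 15.6% of its own. The groups overlapped for both lipases. Abhd5, the activator of Pnpla2, had 0.00 ± 0.09.

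In lipid synthesis, 0 of 4 genes were called and all 4 estimates were negative. Scd2, a stearoyl-CoA desaturase (chromosome 19, 44293674 to 44306864), had a lowest, median and highest level of 0, 6.28 and 43.2 CPM in HFD and of 0, 10.7 and 66.1 CPM in LFD embryos, and its log2 fold change was -0.40 ± 0.21 (FDR = 0.412, edgeR). Fasn, the fatty acid synthase (chromosome 11, 120805846 to 120824547), had a lowest, median and highest level of 0, 16.7 and 41 CPM in HFD and of 0, 20.3 and 62.5 CPM in LFD embryos, with a log2 fold change of -0.25 ± 0.13 (FDR = 0.438, edgeR). In both genes the HFD and LFD ranges overlapped, with 1 LFD embryo above the highest HFD embryo in Scd2 and 5 in Fasn. Acaca, the acetyl-CoA carboxylase, had -0.16 ± 0.17 and Scd1 -0.01 ± 0.14. The genes most like Scd2 within the diets were Mvk (0.47), Tuba4a (0.46) and Spata2 (0.46), over all embryos. Mvk encodes mevalonate kinase of sterol synthesis.

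None of the 9 tested genes of the beta-oxidation spiral was called. Hadhb, the beta subunit of the trifunctional protein that carries out the later steps of the spiral for long chains, lies on chromosome 5 from 30155248 to 30184593. It had a lowest, median and highest level of 3.92, 26.1 and 95.5 CPM in HFD and of 1.19, 25.7 and 74.1 CPM in LFD embryos, and its log2 fold change was 0.14 ± 0.09 (FDR = 0.520, edgeR). Echs1 (chromosome 7, 140105710 to 140116476) had a lowest, median and highest level of 25.5, 76.6 and 188.1 CPM in HFD and of 2.29, 71.4 and 133.1 CPM in LFD embryos. Its log2 fold change was 0.10 ± 0.06 (FDR = 0.547, edgeR). The ranges overlapped for both genes. The other 7 tested genes of the spiral had estimates from -0.28 (Acads, the short-chain dehydrogenase) to 0.16 ± 0.30 (Acadl, the long-chain dehydrogenase), with Acadm at -0.05, Hadh, the hydroxyacyl-CoA dehydrogenase, at -0.07, the peroxisomal thiolase Acaa1a at -0.03 and Acadvl at 0.10. Acadl had a mean of 5.39 ± 5.26 CPM (SD) in the 12 HFD embryos with high macrophage markers, beside 1.93 ± 2.32 in the other 110 HFD and 2.05 ± 2.18 in the LFD embryos, and its estimate ran from -0.13 to 0.21 over the 15 alternatives that tested it.

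Hadha, the alpha subunit of the same protein, starts 85 bases from Hadhb on the opposite strand, so that the pair shares a promoter region. It is shown because the subunits work in 1 complex (RefSeq, GRCm38.p6, chr5:30155003-30155302, plus strand, 5′ to 3′), with capitals marking GC boxes (GGGCGG) on either strand. No CCAAT box or E-box was found in it.
Hadhb: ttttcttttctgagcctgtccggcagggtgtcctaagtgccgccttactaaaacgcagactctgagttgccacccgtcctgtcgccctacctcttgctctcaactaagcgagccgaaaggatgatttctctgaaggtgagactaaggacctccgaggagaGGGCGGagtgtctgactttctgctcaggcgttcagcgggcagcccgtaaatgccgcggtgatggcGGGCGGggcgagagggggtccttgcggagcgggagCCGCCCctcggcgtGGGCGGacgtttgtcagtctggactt
Within the diets, the levels of Hadha and Hadhb had a Pearson's r of -0.03 over all embryos, and their log2 fold changes between the diets were -0.08 ± 0.11 and 0.14 ± 0.09 (SE). Among the 630 pairs of the 36 genes, r had a median of 0.07 and ran from -0.49 (Scd1 with Etfa) to 0.47 (Plin2 with Eci1). These values describe embryos that share the library protocol and differ in depth.

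Of the 4 tested auxiliary enzymes and electron transfer genes, 0 were called. Etfdh, the dehydrogenase that passes electrons to ubiquinone (chromosome 3, 79603788 to 79629500), had a lowest, median and highest level of 1.04, 16.8 and 67.02 CPM in HFD and of 2.86, 16.7 and 36.3 CPM in LFD embryos, and the groups overlapped. The log2 fold change was 0.13 ± 0.10 (FDR = 0.620, edgeR). Etfa had 0.02 ± 0.08 and the isomerases Eci1 and Eci2 0.03 ± 0.13 and 0.01 ± 0.10. In the carnitine shuttle, 0 of 4 were called, with Cpt1a, the rate-setting transferase of the outer membrane, at -0.03 ± 0.21, the inner-membrane transferase Cpt2 at -0.05 ± 0.15, the brain form Cpt1c at -0.27 ± 0.205 and the carrier Slc25a20 at 0.13 ± 0.10. Among the synthetases, 0 of 3 were called, with estimates from -0.13 (Acsl4) to -0.04 (Acsl3) and Acsl1 at -0.06. Of the 5 tested regulators 0 were called, and estimates ran from -0.30 ± 0.25 for Srebf1, which drives lipid synthesis genes, to 0.12 ± 0.23 for Pparg, which drives storage genes. Ppara, which drives oxidation genes, had -0.23 ± 0.19, Srebf2, which drives sterol synthesis genes, -0.16 ± 0.13 and the coactivator Ppargc1b 0.12 ± 0.19.

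Within ranges of 10 embryo numbers, of which 11 held embryos of both diets, the mean log2(CPM + 1) of Plin2 was higher in HFD in 7, with differences from -0.73 to 0.89. That of Pnpla2 was higher in HFD in 1 of 11, of Lipe in 3, of Scd2 in 4 and of Fasn in 5. Hadhb and Echs1 were higher in HFD in 8 of 11 ranges each, and Etfdh in 6. The labels do not say what a range of numbers stands for.

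**Figure D4:**
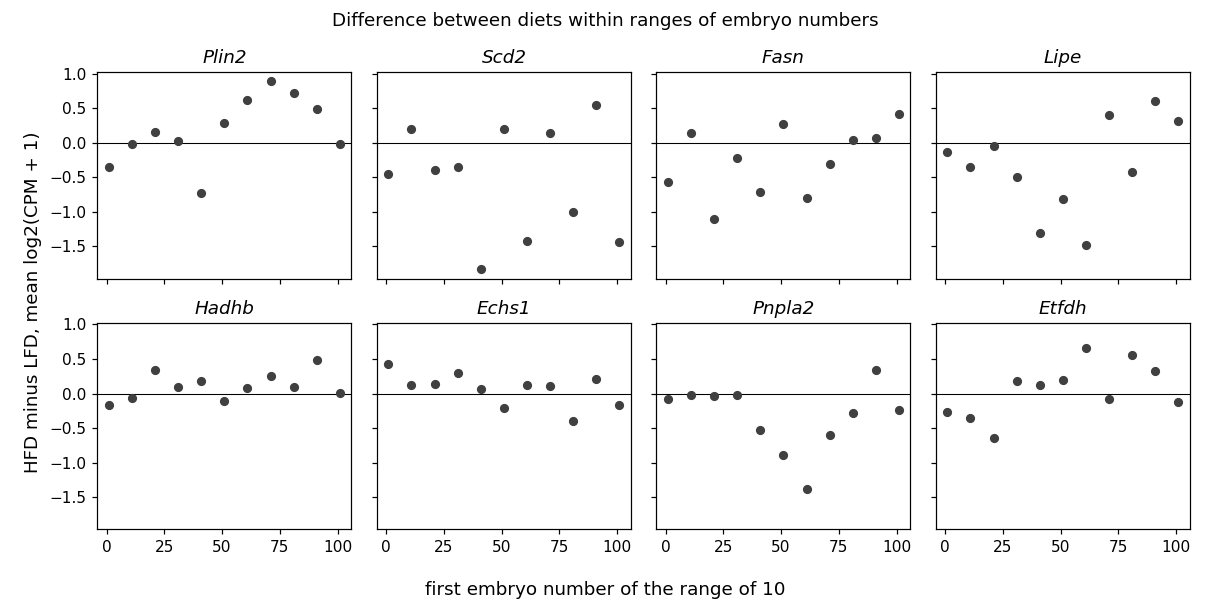
Difference between the diets in mean log2(CPM + 1), HFD minus LFD, within each of 11 ranges of 10 embryo numbers for the 8 genes with the smallest p. Each point is 1 range. The points of Plin2 scatter from -0.73 to 0.89, and those of Pnpla2 lie below 0 in all but 1 range.

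A wider list of 173 other genes of fatty acid oxidation, uptake, storage, synthesis and their control was read in the same fit. Of 137 tested, 0 were called by edgeR, with 14 at an unadjusted p under 0.05, beside 1890 of all 14820 genes, and a median log2 fold change of -0.01. DESeq2 called 2 and limma-voom 2 of them, beside 463 and 325 of all 14820 genes. The smallest p belonged to Scap, the escort protein of the SREBP factors, with a median of 146.6 CPM in HFD and 173.1 in LFD embryos and a log2 fold change of -0.20 ± 0.06 (FDR = 0.0543, edgeR). It was followed by the deacetylase Sirt1, with medians of 43.4 and 37.5 CPM and a log2 fold change of 0.27 ± 0.08 (FDR = 0.0623, edgeR). Scap passed the threshold in 8 of 16 alternatives, among them DESeq2 (FDR = 0.0300), limma-voom (FDR = 0.0382) and the replicate block (FDR = 0.0317, edgeR), and Sirt1 in 6, with FDR = 0.0310, 0.0229 and 0.00488 in the same 3. Without HFD embryos numbered 31 to 70, Scap had -0.13 (FDR = 0.469, edgeR) and Sirt1 0.18 (FDR = 0.513, edgeR). Next came the lipoprotein lipase gene Lpl, at 0.30 ± 0.11 (FDR = 0.134, edgeR). In the 12 HFD embryos with high macrophage markers Lpl had a median of 40.9 CPM and a highest value of 363.8, with 2 of the 12 above the highest LFD embryo, beside medians of 31.7 in the other 110 HFD and 28.6 in the LFD embryos. Without the 12, its log2 fold change was 0.15 (FDR = 0.587, edgeR). The coactivator Crebbp had 0.12 ± 0.04, the phosphatidate phosphatase Lpin2 -0.19 ± 0.07 and the coactivator Pprc1 -0.26 ± 0.10.

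Embryos differed in the balance of 2-cell and maternal transcripts. This was measured as the activation ratio, the log2 level of 2-cell transcripts minus that of maternal transcripts, which was -3.09 ± 0.41 (SD) in HFD and -3.08 ± 0.38 (SD, n = 99) in LFD embryos. With diet as a covariate, 6 of the 36 genes had a slope on this ratio that was called by edgeR, 1 positive and 5 negative. Of 14777 genes tested, 21.4% were called, 9.35% upward and 12% downward along the ratio, beside 16.7% of the 36.

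Acsl1 was the gene with the positive slope, 0.27 ± 0.08 (SE) log2 units per unit of the ratio (FDR = 0.00821, edgeR). Its median level was 68.3 CPM in HFD and 69.8 CPM in LFD embryos, and its lowest 17.8 and 28.8 CPM. Etfa had a slope of -0.31 ± 0.09 (FDR = 0.00600, edgeR) and Acsl3 of -0.23 ± 0.08 (FDR = 0.0168, edgeR), so that 2 synthetases had slopes of opposite sign. Acadm had -0.16 ± 0.06 (FDR = 0.0257, edgeR). The less abundant Cpt1a and Pparg had the steepest slopes, -0.76 ± 0.26 (FDR = 0.0267, edgeR) and -0.77 ± 0.27 (FDR = 0.0302, edgeR). Fitted within each diet, Cpt1a was called in neither (FDR = 0.169 in HFD and 0.113 in LFD embryos, edgeR). Nor was Acsl3 (FDR = 0.105 and 0.0777, edgeR). Etfa, Acsl1 and Pparg were called in LFD but not in HFD embryos, and Acadm in HFD but not in LFD embryos.

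These calls depended on the tool and on which of the lists in the ratio was used. Limma-voom called 4 of the 36, 3 positive (Acsl1, Hadhb and Eci1) and 1 negative (Cpt1a), and shared 2 of them with edgeR. Over all 14777 genes, limma-voom called 2988. Etfa, Acsl3, Acadm and Pparg kept a negative slope in limma-voom and were not called (FDR = 0.133, 0.0808, 0.159 and 0.229). The maternal transcripts alone gave 10 positive and 6 negative calls among the 36, beside 8431 calls among all 14777 genes. With the 2-cell transcripts alone as the score, Etfa had a slope of 0.15 and Acsl3 of 0.12, neither called, and with the maternal transcripts alone (sign turned) Cpt1a had 0.64, also not called. Without the 8 embryos with few genes, 3 of the 36 genes were called, beside 2062 of about 14860 genes. The 3 were Etfa and Cpt1a with negative slopes and Hadhb, which was not among the 6, with 0.32 (FDR = 0.0236, edgeR). The slope of Acsl3 was then -0.12 (FDR = 0.345, edgeR).

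**Figure D5:**
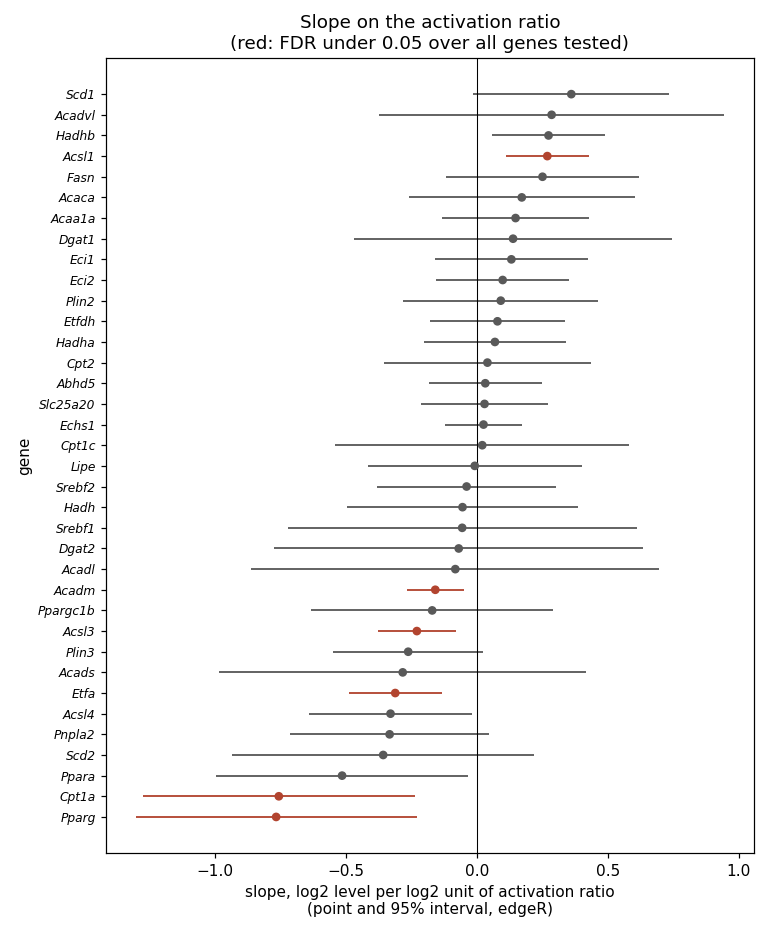
Slope of each of the 36 tested genes on the activation ratio, in log2 units per log2 unit of the ratio, with 95% intervals from edgeR and diet as a covariate (all embryos). The 6 called genes are red, with Acsl1 above 0 and Etfa, Acsl3, Acadm, Cpt1a and Pparg below.

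The difference of the slope between the diets was called for 0 of the 36 genes by edgeR, beside 0.0271% of all genes tested. At an unadjusted p under 0.05 there was 1 of the 36, beside 1043 of all 14777 genes. Limma-voom also called 0. The smallest p was that of Etfdh, with a difference of 0.89 ± 0.25 (FDR = 0.182, edgeR). In the wider list, 19 of 137 genes had a called slope (13.9%, beside 21.4% of all genes), 5 positive and 14 negative. The 6 with the smallest p were named after their values were seen. Dbi, an acyl-CoA binding protein, had a slope of -0.41 ± 0.06 (FDR = 1.715e-09, edgeR). Sqle, the squalene epoxidase of sterol synthesis, had 0.58 ± 0.09, Acly, which makes cytosolic acetyl-CoA, had 0.44 ± 0.08, and Acbd5, a peroxisomal acyl-CoA binding protein, had 0.34 ± 0.06. Lpl had -0.60 ± 0.11 and the fatty acid binding protein Fabp5 -0.56 ± 0.10.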

How the data were processed

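The authors prepared Smart-seq2 libraries of single embryos and deposited raw counts per gene. Per the study's methods and the submitters' processing notes, reads were trimmed with Trim Galore 0.6.6 and aligned with STAR 2.7.10a to GRCm38 with the ST mitochondrial sequence. Per the file headers, featureCounts 2.0.3 counted reads over exons of Ensembl 102 with the reverse-strand setting (2) and each read of a pair singly. Smart-seq2 does not mark strand, so this setting loses part of the reads.

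Groups were the paternal diets in the sample titles. The quasi-likelihood test of edgeR 4.0.16 was fitted to all genes that passed filterByExpr by diet, with TMM factors, under R 4.3.3. P-values were adjusted by Benjamini-Hochberg over all genes tested, and an FDR under 0.05 was a call. Each standard error is the absolute log2 estimate divided by the square root of F. The fits were tested on simulated counts drawn independently for each embryo, which cannot show the effect of shared sires. Slopes on the activation ratio left out the genes of its lists. Levels used CPM of all counts, with 1 added on the log2 scale, and 0.5 added to summed marker levels. DESeq2 1.42.0 and limma 3.58.1 (voom) were alternatives. No unique molecular identifiers were used, so counts are not independent molecules. Full values were given for called genes and for the 8 with the smallest p, levels for the 8 highest and those failing the filter, slopes for the called genes, and, in the wider list, the 6 with the smallest p. All other genes were given by a fold change, a range or a count. The genes and lists were chosen with earlier results of these data known.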

Additional observations from a re-analysis of the deposited data

How the results depend on the processing

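The count of all genes called between the diets (314 of 14820 tested) was 7030 of about 45510 with no filter on low counts. Over the embryos whose number occurs in both diets it was 627 of about 14440. It was 560 of about 14910 without the libraries with few genes. Without the 12 HFD embryos with high macrophage markers it was 193 of about 14620. Of 14820 genes, 175 were called without HFD embryos numbered 31 to 70 and 80 with number ranges as a random effect. Plin2 was the 1 of the 36 genes called by 9 of 16 alternatives, and 0 were called by limma-voom, with number ranges as a random effect, with the Y-linked, macrophage or cumulus level as covariate, without the 12 embryos, and with the replicate block. The cause was not tested. The replicate block on the embryo number (94 pairs) called 496 of all genes, 0 of the 36 (Plin2 at 0.37, FDR = 0.279, edgeR) and 2 of the wider list. Equal numbers do not mark a shared origin in the labels. The deviations of same-numbered embryos had a median correlation of 0.006, 17 of 94 pairs were over 0.1, and 0 HFD embryos correlated best with their own number. In the wider list, alternatives called 1 (RLE normalization, mean CPM of at least 5, no HFD embryos numbered 31 to 70, cumulus level, number of genes), 2 (DESeq2, limma-voom), 3 (without libraries with few genes), 4 (same embryos without the block) or 9 of 173 genes (no filter). Over all genes the same settings called, in that order, 336, 350, 175, 391 and 424, then 463 and 325, then 560, 627 and 7030.

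For the slopes, all genes called (3157 of 14777 tested) were 1657 of about 11460 in HFD and 1703 of about 11560 in LFD embryos alone. They were 8431 of 14777 with the maternal list alone, 2062 of about 14860 without the libraries with few genes and 6646 of about 45460 with no filter. Of the 36 genes (6 called), 1 of the 30 tested there was called in HFD embryos alone and 4 of 31 in LFD embryos alone. With the maternal list alone 16 were called (10 positive, 6 negative), and without the libraries with few genes 3. Among the 6 called slopes, 3 changed sign, those of Etfa (0.15) and Acsl3 (0.12) with the 2-cell list alone and that of Cpt1a (0.64) with the maternal list alone. Pnpla2, Lipe, Scd2, Fasn, Hadhb, Echs1 and Etfdh had the same sign and stayed above an FDR of 0.05 under all 16 alternatives of the diet comparison. Some log2 fold changes were over 1.5 times smaller, those of Lipe (-0.12), Pnpla2 (-0.08) and Etfdh (0.08) without HFD embryos numbered 31 to 70. So were those of Hadhb (0.09) and Etfdh (0.07) with the cumulus level, Echs1 (0.06) without the libraries with few genes and Etfdh (0.07) with the replicate block. With that block Lipe (-0.46) and Pnpla2 (-0.40) lay further from 0. Of the named genes of the wider list, Scap passed the threshold in 8, Sirt1 in 6, Lpl and Crebbp in 2 each and Pprc1 in 1 of the 16. The 7 genes that failed the filter were tested with no filter, and 0 were called, beside 7030 of about 45510 genes.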
